A study of Mus musculus with 4 samples.

Results

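The genes described here are the Fos, Jun and Egr immediate early transcription factors, read by gene symbol in RNA sequencing of cultured mouse inner ear cells. The members are Fos, Fosb, Fosl1 and Fosl2 (Fos family), Jun, Junb and Jund (Jun family), and Egr1, Egr2 and Egr3 (Egr family), and all 10 were found among the 24346 symbols of the files. The samples were 2 vestibular cultures (from the organs of balance) and 2 cochlear cultures (from the organ of hearing), called vestibular 1, vestibular 2, cochlear 1 and cochlear 2, and this is the library order in which sets of 4 values are given. No treatment, genotype, strain or age is given for either group, and nothing says that samples of a group came from separate animals or cultures. A p-value therefore measures only the spread between these libraries, which need not be that between animals. Cell type markers differed widely between libraries of the same group, as given below. The comparison of the groups asks which genes differ between cells cultured from these parts of the ear. Values are FPKM, the fragments of a gene divided by its transcript length and by the size of the library.

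Fos and Jun proteins pair through a leucine zipper into the transcription factor AP-1, and Jun proteins can also pair among themselves. Egr proteins bind GC-rich DNA through zinc fingers. Serum, growth factors, stress and tissue handling switch on many of these genes within minutes through MAP kinases acting on the factors SRF, ETS and CREB at their promoters, and their short-lived mRNA then decays. Jund is known to be kept on more steadily than its relatives.

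The promoters of 4 members whose levels varied between libraries are printed to show the letters from which these genes are transcribed. They are RefSeq windows on GRCm38.p6, from 250 bases before to 50 after a transcript start, and 7 of the 10 members matched at least 1 of 11 windows; Fosl1, Egr1 and Egr3 matched none. Egr2 has 5 windows, and the one at the start of its longest coding GENCODE transcript is shown. Capitals mark matches on either strand to TGACGT (a cyclic AMP response element core, which also lies inside TGACGTCA), TGACATCA (an AP-1 and ATF type site), the TATA box letters TATAAA, the sequence CCAAT or the CArG box bound by SRF.
Fos, chr12:85473640-85473939, plus strand: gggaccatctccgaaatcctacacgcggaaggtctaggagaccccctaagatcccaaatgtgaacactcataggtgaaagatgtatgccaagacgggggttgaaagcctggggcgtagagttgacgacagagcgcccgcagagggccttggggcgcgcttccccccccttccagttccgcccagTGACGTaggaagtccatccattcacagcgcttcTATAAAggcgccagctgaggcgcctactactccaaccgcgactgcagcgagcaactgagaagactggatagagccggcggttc
Jun, chr4:95052173-95052472, minus strand: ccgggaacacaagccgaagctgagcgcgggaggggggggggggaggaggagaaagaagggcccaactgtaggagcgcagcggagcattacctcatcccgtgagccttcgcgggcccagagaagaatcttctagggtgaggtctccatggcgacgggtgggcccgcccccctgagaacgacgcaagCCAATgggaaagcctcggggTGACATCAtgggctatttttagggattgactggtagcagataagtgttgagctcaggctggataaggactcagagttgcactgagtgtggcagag
Junb, chr8:84978699-84978998, minus strand: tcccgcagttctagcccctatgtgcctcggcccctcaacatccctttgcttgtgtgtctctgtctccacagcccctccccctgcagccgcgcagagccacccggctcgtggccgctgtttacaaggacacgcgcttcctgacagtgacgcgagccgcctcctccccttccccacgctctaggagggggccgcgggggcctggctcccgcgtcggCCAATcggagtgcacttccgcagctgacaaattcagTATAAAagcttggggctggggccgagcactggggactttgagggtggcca
Egr2, chr10:67537619-67537918, plus strand: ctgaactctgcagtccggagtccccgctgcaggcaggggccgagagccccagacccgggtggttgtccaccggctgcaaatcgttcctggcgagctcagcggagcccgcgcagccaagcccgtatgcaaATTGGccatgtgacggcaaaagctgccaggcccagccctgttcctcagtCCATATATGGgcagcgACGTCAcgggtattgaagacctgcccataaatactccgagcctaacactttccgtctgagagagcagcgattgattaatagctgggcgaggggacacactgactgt
In the Fos window TGACGT began at -66 and TATAAA at -33, counted from the RefSeq start on the strand of the gene. In Jun, CCAAT began at -65 and TGACATCA at -45. In Junb, CCAAT began at -36 and TATAAA at position 1 of the RefSeq transcript, whose start lies 30 bases upstream of the GENCODE start. In Egr2, CCAAT on the other strand began at -121, the CArG box at -72 and TGACGT on the other strand at -56. Of 32851 promoter windows of this length, 7.51% held TGACGT, 3.62% TGACATCA, 13.6% TATAAA, 37.4% CCAAT and 1.63% a CArG box. TGACGTCA (in 1.79% of windows), the AP-1 letters TGANTCA (7.81%) and the Egr letters GCGNGGGCG (5.55%) were not in these 4 windows. A match is a run of letters and says nothing on binding in these cultures.

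The libraries differed in the cells they held, as far as marker genes show, and vestibular 2 and cochlear 2 each stood apart. The summed FPKM of 14 epithelial markers was 1217 in vestibular 1, 113 in vestibular 2, 2173 in cochlear 1 and 2678 in cochlear 2. That of 12 macrophage markers was 8801, 6682, 6754 and 24.6 in library order, so cochlear 2 held next to no macrophage transcripts. The 8 cartilage markers summed to 892, 4266, 548 and 1074, and the 6 melanocyte markers to 9.94, 227, 8.06 and 4.76, highest in vestibular 2 for both. Most of the cartilage sum in cochlear 2 was Lect1 (123, 33.7, 327 and 853), a gene lowest in vestibular 2. The median log2(FPKM + 1) of the 7 cartilage genes tested was 6.24, 9.1, 5.22 and 5.3. Fibroblast markers (12 genes) summed to 5571, 11830, 2673 and 2396, but the sum follows the most abundant genes, and their median log2(FPKM + 1) was 7.67, 7.38, 6.74 and 6.17, not higher in vestibular 2 than in vestibular 1. Of 10 hair cell markers, the factor genes Atoh1 and Pou4f3 reached at most 0.10 and 1.0 FPKM in any library, while Myo7a had 13.4, 8.93, 9.83 and 5.81 and Espn 4.59, 4.53, 7.95 and 17.2. Of 8 endothelial markers, Cldn5 was listed at 0 in all libraries and Pecam1 reached at most 0.155 FPKM, while Emcn had 14.5, 34.3, 112 and 287, and Cdh5 reached 10.7 in vestibular 2. In such bulk samples fewer cells of a type and less RNA per cell cannot be told apart.

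**Figure D1:**
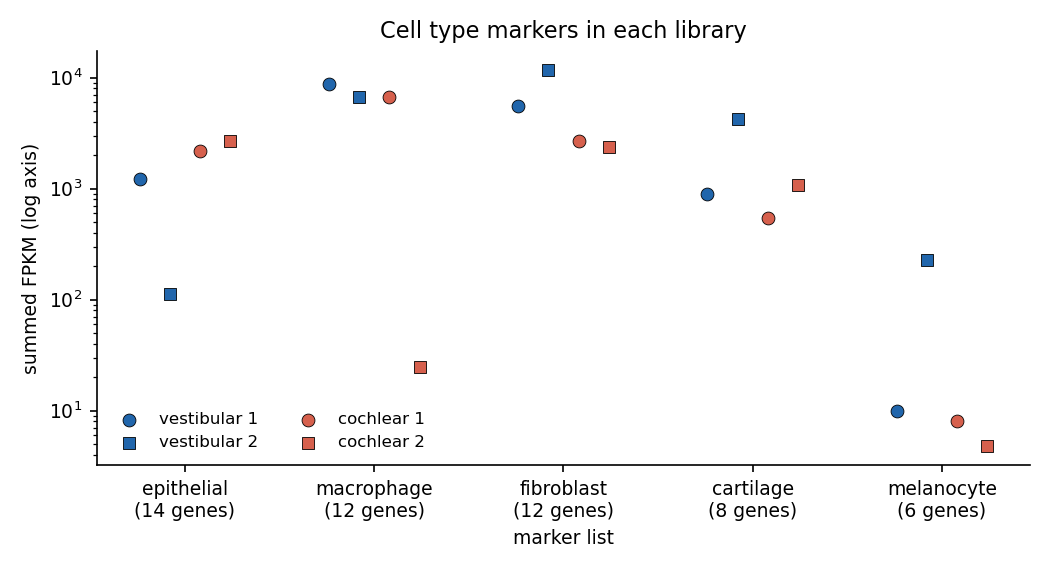
Summed FPKM (log axis) of 5 cell type marker lists in each library; circles are libraries numbered 1, squares libraries numbered 2, blue vestibular and red cochlear. Epithelial markers are lowest in vestibular 2 (113) and macrophage markers lowest in cochlear 2 (24.6).

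Positions are from GENCODE M21 on GRCm38. In the Fos family, Fos (chr12:85473890-85477273, plus strand, 4 exons) varied most in absolute FPKM, though not by fold. It stood at 41.1 FPKM in vestibular 1, 3.10 in vestibular 2, 40.8 in cochlear 1 and 12.3 in cochlear 2. The libraries numbered 1 were thus nearly equal, those numbered 2 were lower, and the groups overlapped. The vestibular mean was 22.1 ± 26.9 FPKM and the cochlear mean 26.6 ± 20.2 FPKM (SD, n = 2 in either group). Fosl2 (chr5:32135801-32157842, plus strand, 4 exons), which encodes Fra-2, had similar values throughout, 24.9, 20.7, 28.1 and 22.3 FPKM in library order. In vestibular 2 the level of Fosl2 was therefore above that of Fos, and in vestibular 1 it was below.

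Fosl1 (chr19:5447547-5455946, plus strand), which encodes Fra-1, and Fosb (chr7:19302696-19310051, minus strand) were low, and their groups did not overlap. Fosl1 stood at 0.350, 0.0629, 1.79 and 1.87 FPKM in library order. These values correspond to about 5, 1, 28 and 30 fragments. The span of Fosl1, 29.7-fold against 13.3-fold for Fos, thus rests on few fragments. Fosb stood at 0.851, 0.396, 1.66 and 1.62 FPKM, which is about 24, 12, 53 and 53 fragments. Both genes were higher in the cochlear cultures in each library, at levels near the filter of a mean of 1 FPKM. Fosl1 overlaps Ccdc85b on the other strand (6.15, 5.99, 9.05 and 9.72 FPKM), and fragments may be shared with it, since the use of strand in counting is not given in the sources used here. The 2 genes passed the filter through their cochlear values (means 1.02 FPKM for Fosl1 and 1.13 for Fosb over the 4 libraries), so a difference was built into their being tested.

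In the Jun family, Junb (chr8:84974484-84978718, minus strand, 1 exon), whose protein is often a weaker activator than c-Jun, varied most. It stood at 112 FPKM in vestibular 1, 17.8 in vestibular 2, 119 in cochlear 1 and 53.6 in cochlear 2. Jun (chr4:95049034-95052222, minus strand, 1 exon), the gene of c-Jun, followed the same order of libraries over a smaller range, with 45.7, 22.5, 56.6 and 30.0 FPKM. Both genes were highest in cochlear 1 and lowest in vestibular 2, and their groups overlapped. Jund (chr8:70698949-70700616, plus strand, 1 exon) had 62.9, 47.2, 54.1 and 56.8 FPKM in the same order of libraries, a highest value 1.33-fold above the lowest. Jund thus stayed level while Junb spanned 6.71-fold and Jun 2.52-fold. Junb overlaps Prdx2 on the other strand, which had 265, 223, 306 and 362 FPKM and so did not follow the order of Junb. Jun and Jund overlap the noncoding genes Junos and Gm11175 on the other strand, which were not analysed here.

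In the Egr family, Egr1 was by far the most abundant. It stood at 101 FPKM in vestibular 1, 8.28 in vestibular 2, 65.2 in cochlear 1 and 18.1 in cochlear 2, a 12.2-fold span. Egr2 (chr10:67535475-67542188, plus strand, 2 exons), a regulator of myelinating Schwann cells and of the hindbrain, had 3.34, 1.16, 6.26 and 2.0 FPKM in that order. Egr3 (chr14:70077203-70082614, plus strand, 2 exons) had 2.13, 0.446, 0.882 and 0.510 FPKM. Its mean of 0.991 FPKM lay just under the filter, so it was not tested. For each Egr gene the libraries numbered 2 lay below both libraries numbered 1, and the groups overlapped. The values of Egr3 rest on about 63, 15, 29 and 17 fragments, and those of Egr1 on about 308 fragments or more.

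**Figure D2:**
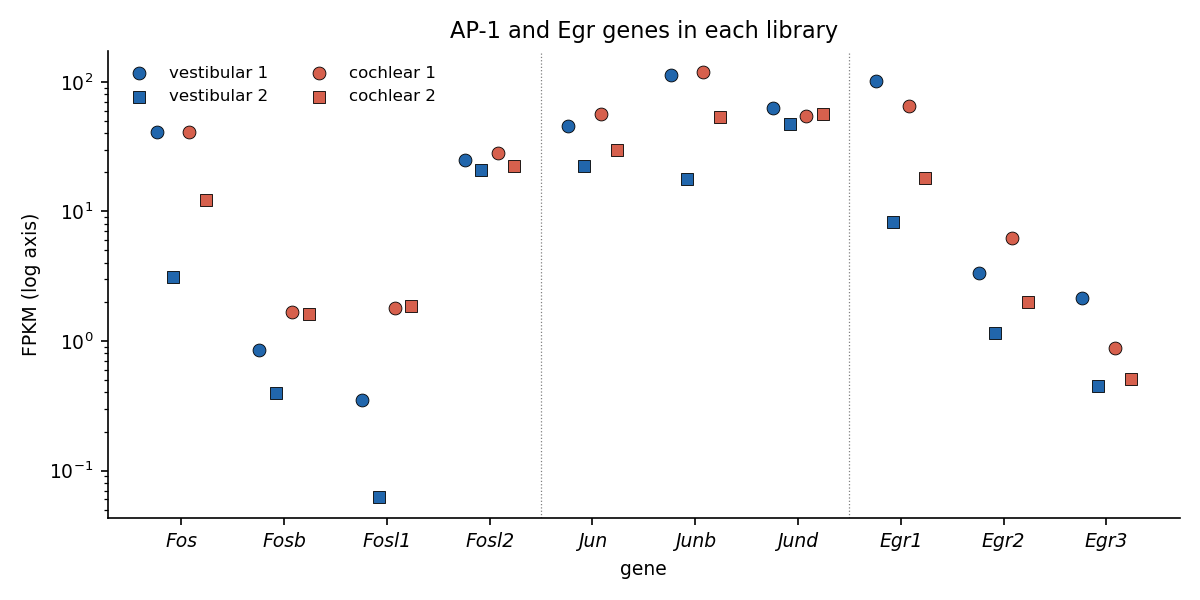
FPKM (log axis) of the 10 genes in each library; circles are libraries numbered 1, squares libraries numbered 2, blue vestibular and red cochlear, with dotted lines between the Fos, Jun and Egr families. Vestibular 2 is the lowest library for all 10 genes, while Fosl2 and Jund stay nearly level.

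Ordered by FPKM within a library, the leading member changed. Junb led in vestibular 1 and cochlear 1, followed by Egr1, and Jund led in vestibular 2 and cochlear 2. Among the 10 members Fos had rank 5 in both libraries numbered 1 and rank 6 in both numbered 2. In vestibular 1, Fos stood above 91.5% of all symbols and Egr1 above 96.9%, against 55.1% and 67.0% in vestibular 2. Jund stood above 94.7%, 92.5%, 93.5% and 94.0% of symbols in library order. Fosl1, Fosb, Egr2 and Egr3 held the lowest 4 places in each library.

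The groups were compared with limma on log2(FPKM + 1), which understates the difference of low genes, over 13200 genes with a mean of at least 1 FPKM and with Benjamini-Hochberg adjustment at a threshold of 0.05. None of the 9 members tested passed, against 0.0303% of all genes tested (4 genes). At an unadjusted limma p under 0.05 there was 1 member, Fosl1, against 18.2% of all genes (10.6% when counting genes lower in vestibular cultures). Its log2 difference, vestibular minus cochlear, was -1.24 (SE 0.26, 95% interval -1.97 to -0.51, limma p 0.0101, adjusted p 0.180), higher in cochlear in 2 of 2 libraries. Leaving out each library in turn gave -1.41 to -1.07. The difference of Fosb was -0.71 (95% interval -1.45 to 0.02, limma adjusted p 0.282). Fosl1 and Fosb passed the filter through their cochlear values, so their direction was partly built in and these values are no independent support for it. Groups did not overlap in these 2 members of 9, against 55.3% of all genes tested, and in both the cochlear values were higher, against 28.4%. With 2 against 2 libraries the smallest 2-sided exact permutation p is 0.333.

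For the abundant members the interval of the difference was wide or lay near 0. It ran from -4.79 to 3.10 for Fos (difference -0.84, limma adjusted p 0.762), from -3.80 to 2.16 for Junb (difference -0.82) and from -4.31 to 3.89 for Egr1 (difference -0.21). These intervals hold changes of many fold either way, so the data do not show that these genes act alike in the 2 groups. For Jund the interval ran from -0.53 to 0.48 (difference -0.02) and for Fosl2 from -0.64 to 0.38 (difference -0.13). The means of all 9 tested members were lower in vestibular cultures on the log2 scale (median difference -0.61, against 0.01 over all genes tested, of which 48.6% were lower). By mean FPKM, 8 of the 10 members were lower there, while Egr1 (54.7 against 41.6) and the untested Egr3 (1.29 against 0.696) were higher. The shared direction on the log2 scale leaned on vestibular 2. Without it 4 of the 9 were lower, with Fos at 0.84, Junb at 0.48, Jun at 0.14, Jund at 0.18 and Egr1 at 1.52. Without cochlear 1, 5 of the 9 were lower.

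**Figure D3:**
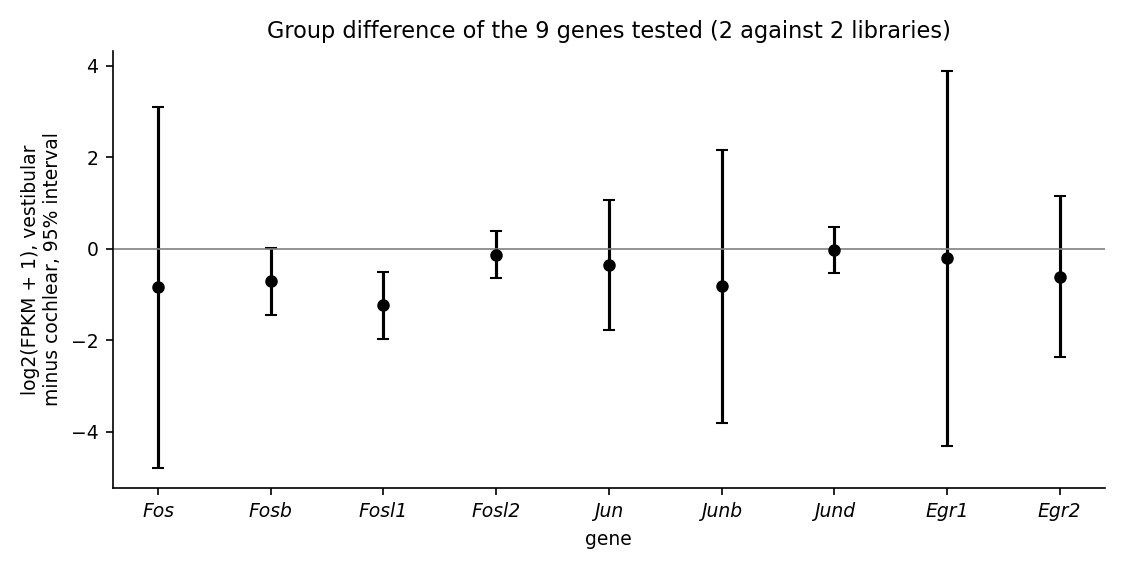
Difference between groups on the log2(FPKM + 1) scale, vestibular minus cochlear, with its 95% interval from limma, for the 9 genes tested in 2 against 2 libraries. The intervals of Fos, Junb and Egr1 span several log2 units. That of Fosl1 alone lies wholly below 0 (-1.97 to -0.51), with a limma adjusted p of 0.180. Fosl1 and Fosb passed the filter through their cochlear values, so a difference was built into their being tested.

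Differences within a group exceeded the difference between groups in 7 of the 9 members tested, in at least 1 of the groups, against 59.2% of all genes. Fos was 13.3-fold higher in vestibular 1 than in vestibular 2 and 3.32-fold higher in cochlear 1 than in cochlear 2. Egr1 was 12.2-fold and 3.60-fold higher in the same pairs, Junb 6.29-fold and 2.22-fold, and Egr2 2.88-fold and 3.14-fold. Jun was 2.03-fold and 1.89-fold higher. All 10 members had more FPKM in vestibular 1 than in vestibular 2, against 51.4% of all genes tested, and 8 of 10 had more in cochlear 1 than in cochlear 2, against 48.3%. The exceptions were Fosl1 and Jund. This pattern was noticed after the values were seen, and library numbers carry no known meaning across the groups.

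Higher values in the library numbered 1 of both groups were found in 8 of 10 members, against 26.3% of the genes tested. A difference of more than 2-fold in both pairs was found in 4 of 10 members (Fos, Junb, Egr1 and Egr2), against 1.2% of the genes tested. The vestibular gap was as large as that of Fos in 0.644% of tested genes, as that of Egr1 in 0.591% and as that of Junb in 1.08%. For the cochlear gap the shares were 3.43% for Fos, 3.08% for Egr1 and 5.37% for Junb. For Fosl2 the shares were 44.3% and 27.6%, and for Jund 27.4% and 76.8%, so these 2 genes varied about as other genes did. Of macrophage markers, 12 of 12 were higher in the library numbered 1 of both groups (median log2 gap 0.59 in the vestibular and 6.93 in the cochlear pair), but 0 by more than 2-fold in both. Their sum was lowest in cochlear 2 (24.6), whereas all 10 members were lowest in vestibular 2. Of epithelial markers, 0 of 14 were higher in the library numbered 1 of both groups, with 13 of 14 higher in vestibular 1 than vestibular 2. The part of these cells in the levels of Fos, Junb and Egr1 was not tested.

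**Figure D4:**
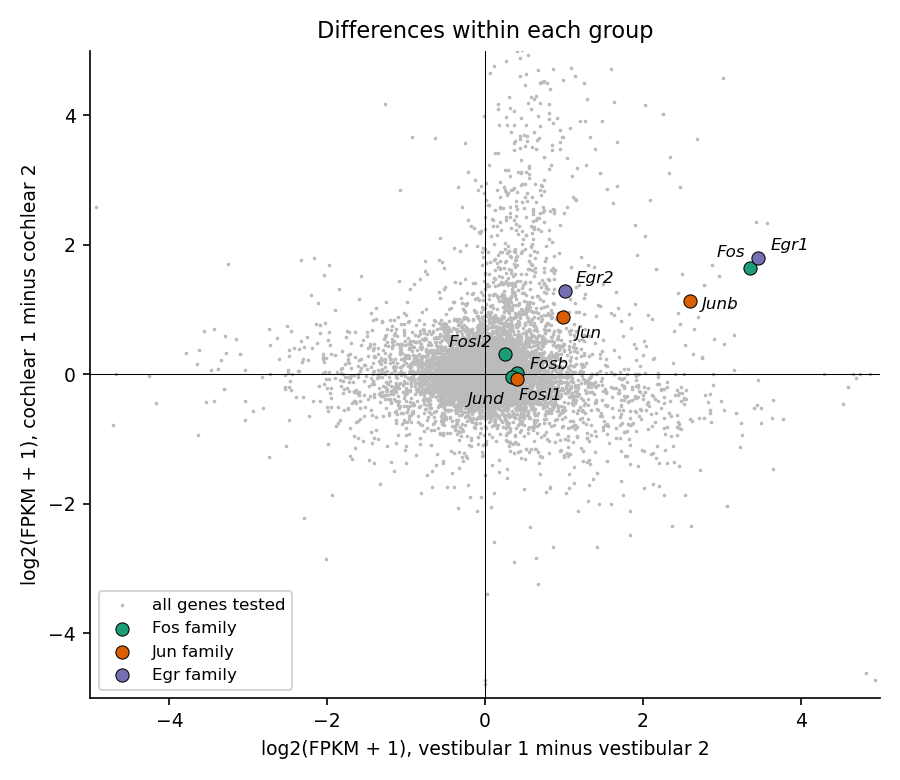
Each point is a gene tested, placed by its difference on the log2(FPKM + 1) scale within the vestibular pair (x) and within the cochlear pair (y); 124 genes lie beyond the plotted range of 5 either way. Fos (3.36 and 1.65), Egr1 (3.46 and 1.79) and Junb (2.59 and 1.14) lie at the upper right, and Fosl2, Jund, Fosb and Fosl1 lie near the centre. For the low genes Fosl1 and Fosb the added 1 flattens the difference. In FPKM they were 5.56-fold and 2.15-fold higher in vestibular 1 than in vestibular 2.

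The make-up of the AP-1 genes differed between the libraries of each group. Of the summed FPKM of the 7 Fos and Jun genes, Junb held 38.9% in vestibular 1, 15.9% in vestibular 2, 39.4% in cochlear 1 and 30.0% in cochlear 2. Jund held 21.9%, 42.2%, 17.9% and 31.8% in the same order, the reverse of Junb. Fos held 14.3%, 2.77%, 13.5% and 6.89%. Jun held a similar share in each library, 15.9%, 20.1%, 18.7% and 16.8%, and Fosl2 held 8.67%, 18.6%, 9.29% and 12.5%. Jun family genes made up more FPKM than Fos family genes everywhere, with sums of 220 against 67.2 in vestibular 1 and 87.5 against 24.3 in vestibular 2, and 230 against 72.3 and 140 against 38.1 in cochlear 1 and 2. The ratio of Fos to Egr1 was 0.407 and 0.374 in vestibular 1 and 2 and 0.626 and 0.679 in cochlear 1 and 2. It was the only ratio computed among these genes that did not overlap between the groups, and was picked out after the values were seen. By FPKM, groups did not overlap in 55.3% of all genes tested. The ratio of Fos to Jund ran from 0.0656 in vestibular 2 to 0.755 in cochlear 1, and its groups overlapped.

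**Figure D5:**
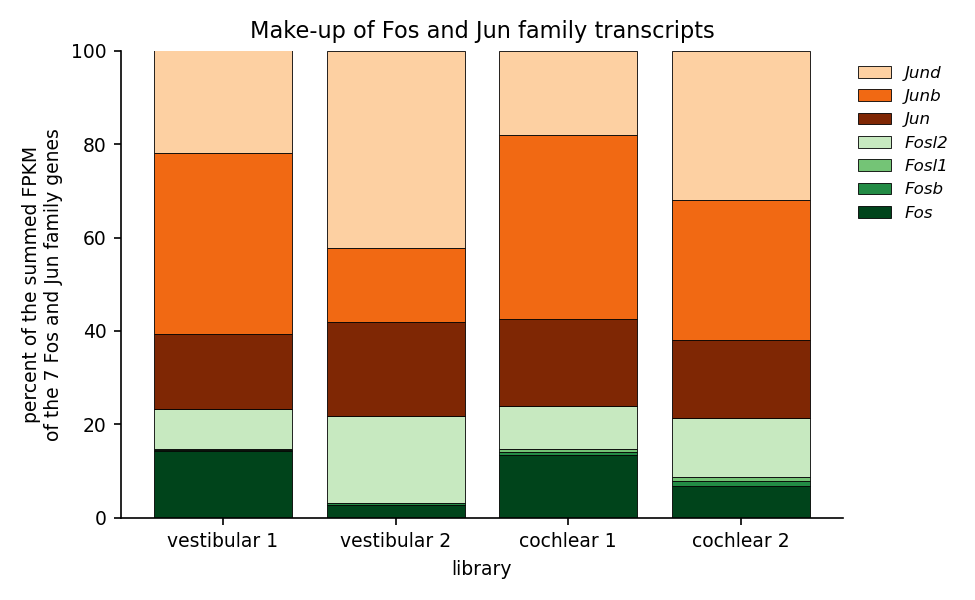
Percent of the summed FPKM of the 7 Fos and Jun family genes held by each gene in each library (stacked bars). Jund holds 42.2% in vestibular 2 and 31.8% in cochlear 2, and Junb holds 38.9% in vestibular 1 and 39.4% in cochlear 1.

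Genes most like the leading member of each family were sought by the Euclidean distance of centred log2(FPKM + 1) over the 4 libraries, among genes with a mean of at least 10 FPKM. With 4 points this is a description only. Nearest to Fos were Egr1 (distance 0.65), Junb (0.66) and Ier2 (0.97). Nearest to Junb were Fbln2, a basement membrane fibulin gene (0.64), Ier2 (0.65) and Fos (0.66). Nearest to Egr1 were Fos (0.65), Ier2 (0.82) and Zfp36 (0.92). Ier2, itself an immediate early gene, had 54.3, 9.17, 40.4 and 16.4 FPKM in library order. Zfp36, which encodes the mRNA decay factor tristetraprolin, had 66.1, 13.9, 60.6 and 18.9 FPKM. Fbln2 had 28.9, 6.29, 26.9 and 19.7 FPKM.

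Other immediate early genes shared the order of the libraries in part. Of 30 listed genes 27 were tested and 0 passed limma's adjusted threshold. An unadjusted limma p under 0.05 was found in 5 of the 27, against 18.2% of all genes, 4 lower and 1 higher in vestibular cultures. The median log2 difference of the 27 was -0.22, with 19 lower, against 48.6% of all genes. Without vestibular 1 the median was -0.80, without cochlear 2 it was -0.35, and without vestibular 2 it was -0.23 with 14 of 27 lower. The most abundant were Cyr61 at 453, 138, 264 and 258 FPKM in library order, Ctgf at 401, 604, 638 and 425, Ier3 at 118, 64.0, 154 and 160, and Bhlhe40 at 48.3, 30.1, 87.3 and 78.5. Cyr61 and Ctgf encode secreted matrix proteins that are switched on by serum and by stretch. Ctgf was higher in vestibular 2 than in vestibular 1, against the order of Fos. Bhlhe40, a clock and hypoxia repressor gene, did not overlap between groups and had a log2 difference of -1.10 (limma adjusted p 0.206). In 22 of the 27 genes vestibular 1 was above vestibular 2, against 51.4% of all genes tested, and in 19 cochlear 1 was above cochlear 2, against 48.3%. In 14 of the 27 the library numbered 1 was higher in both groups, against 26.3%, and of the 27 Ier2 alone was so by more than 2-fold in both. Egr4, the remaining Egr gene, was at most 0.0488 FPKM.

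Genes that end the response, the phosphatases of MAP kinases, Sprouty and Spred inhibitors, mRNA decay factors and the Egr corepressors Nab1 and Nab2, mostly had the lower mean in vestibular cultures. Of 18 listed genes 17 were tested and 16 had the lower mean there, against 48.6% of all genes (median log2 difference -0.57), but 0 passed limma's adjusted threshold. Those with an unadjusted p under 0.05 numbered 5, against 18.2% of all genes, and all were lower in vestibular cultures, against 10.6%: Dusp4, Dusp6, Dusp8, Dusp10 and Spry4. Dusp6, a MAP kinase phosphatase gene, had 28.6, 13.3, 49.2 and 45.9 FPKM (log2 difference -1.24, SE 0.40, limma adjusted p 0.255). Zfp36l1 had 96.3, 42.7, 105 and 87.4 FPKM and Zfp36l2 107, 65.2, 62.0 and 54.3 in library order. Without vestibular 2 the median of the list was -0.31, with 12 of 17 lower, and without vestibular 1 it was -1.0.

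The kinases and factors that act on these promoters did not lean to either group as a set, though some differed between libraries. Of 24 listed genes 23 were tested, 11 lower and 12 higher in vestibular cultures, with a median log2 difference of 0.02. None passed limma's adjusted threshold, and 3 had an unadjusted limma p under 0.05, against 18.2% of all genes. Of these, Rps6ka1 (27.4, 23.6, 47.5 and 43.0 FPKM in library order) and Rps6ka3 (16.0, 13.8, 25.5 and 24.4) were lower in vestibular cultures. Elk1 (12.6, 12.4, 9.64 and 9.83) was higher there. Map2k6 had 3.05, 11.1, 3.53 and 2.87 FPKM, highest in vestibular 2. Mapk3, a MAP kinase gene, had 131, 130, 144 and 124 FPKM in library order, and the genes of its activating kinases, Map2k1 and Map2k2, had 60.5, 59.6, 79.2 and 70.0 and 36.6, 38.1, 37.7 and 40.4 FPKM. These mRNA levels say nothing on kinase activity. Other bZIP partners of Fos and Jun were higher in vestibular cultures in 12 of 14 tested. In 2 of them the mean was lower, against 48.6% of all genes, and the median was 0.25. None passed limma's adjusted threshold. At an unadjusted limma p under 0.05 there was 1, against 18.2% of all genes, and it was lower in vestibular cultures. Without cochlear 2 the median was 0.06 and 5 of 14 were lower. The most abundant were Nfe2l1 at 117, 149, 126 and 120 FPKM, Atf4 at 127, 136, 111 and 113, and Nfe2l2 at 65.9, 60.6, 50.3 and 53.5. Maf, a gene that macrophages also express, had 46.0, 45.6, 23.2 and 6.33 FPKM, beside macrophage marker sums of 8801, 6682, 6754 and 24.6. A link between them was not tested.

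Reported targets of AP-1 and Egr proteins differed in part by library number and in part by group. Of 22 listed genes 18 were tested, 13 of them lower in vestibular cultures, against 48.6% of all genes (median log2 difference -0.47). None passed limma's adjusted threshold, and 3 had an unadjusted limma p under 0.05, against 18.2% of all genes. Without vestibular 2 the median was 0.21 and 8 of 18 were lower, and without vestibular 1 it was -0.88. The highest were Spp1 (4095, 2598, 5377 and 4459 FPKM in library order), Ccnd1 (252, 85.7, 190 and 360), Mt1 (209, 86.6, 328 and 216) and the tissue factor gene F3 (99.7, 126, 253 and 254). Spp1 and Ccnd1, the cyclin D1 gene, were both lowest in vestibular 2, and Ccnd1 was highest in cochlear 2. In 12 of the 18 the library numbered 1 was higher in both groups, against 26.3% of all genes, and in 4 by more than 2-fold in both, against 1.2%. One of these, chosen after its values were seen, was the stromelysin gene Mmp3 at 62.5, 10.5, 27.1 and 2.78 FPKM.

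Genes of heat shock and general stress did not follow Fos in both pairs of libraries. All 16 were tested, 0 passed limma's adjusted threshold and the median log2 difference was -0.06, with 11 lower in vestibular cultures, against 48.6% of all genes. Vestibular 1 was above vestibular 2 in 11 of 16, and cochlear 1 above cochlear 2 in 4. At an unadjusted limma p under 0.05 there was 1, against 18.2% of all genes. It was the inducible chaperone gene Hspa1a (3.15, 2.54, 5.49 and 7.17 FPKM in library order), lower in vestibular cultures. Hspa8, the constitutive chaperone gene, had 891, 876, 885 and 977 FPKM, Hsp90ab1 562, 731, 568 and 626, Hspa5 493, 454, 490 and 483, and Hsp90aa1 204, 191, 192 and 209 in library order. In 3 of the 16 the library numbered 1 was higher in both groups, against 26.3% of all genes. Cytoskeletal targets of SRF were higher in vestibular cultures in 11 of 14 (3 of 14 lower, against 48.6% of all genes; median log2 difference 0.23). None passed limma's adjusted threshold, and 3 had an unadjusted limma p under 0.05, against 18.2% of all genes. Of these, Acta2 and Tagln had the higher mean in vestibular cultures and Fhl2 the lower. The median was 0.10 without vestibular 1 and 0.07 without cochlear 2, with 6 of 14 lower in either case. The most abundant were Actb (1419, 1133, 1394 and 834 FPKM), Actg1 (1273, 1126, 1588 and 1444), Tpm1 (429, 201, 184 and 235) and Tpm4 (264, 247, 346 and 294), of which Actg1 and Tpm4 were higher in both cochlear libraries. The library numbered 1 was higher in both groups in 5 of the 14, against 26.3% of all genes. Genes of dividing cells were low apart from Pcna, a replication clamp gene (45.2 to 64.7 FPKM), and 0 of 10 passed limma's adjusted threshold. An unadjusted limma p under 0.05 was found in 0 of these 10, against 18.2% of all genes. In 8 of these 10 the library numbered 1 was higher in both groups, against 26.3% of all genes, by less than 2-fold in at least 1 of them.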

How the data were processed

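Per the file headers, the deposited values are FPKM, 1 file per sample, made by the authors. The submitters' processing notes name Cuffdiff 2.2.1, TopHat2 2.1.1, SAMtools 0.1.18, Bowtie2 2.2.8 and the build mm10, and per the labels' protocols the RNA was TRIzol-extracted and mRNA-selected with a stranded kit. The sources used here do not give settings, annotation or the scaling between libraries. FPKM totals ran from 479380 to 519122. Single-exon olfactory receptor genes at low values clustered at the FPKM of 1 fragment (9 to 14 genes per library within 5%), which ranged 1.15-fold over the libraries. From that value and the longest coding GENCODE M21 transcript, approximate fragment numbers were computed, so they depend on the transcript model.

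Vestibular and cochlear libraries were set against each other in limma 3.58.1 under R 4.3.3 (lmFit, eBayes with a mean-variance trend, prior degrees of freedom 1.71, 2-sided) on log2(FPKM + 1) over 13200 genes with a mean of at least 1 FPKM, with Benjamini-Hochberg adjustment over all of them. The fit was tested on simulated data. No count model was used. The members and gene lists were chosen with earlier results of these data known. Named genes were the 10 members, per pathway list those past the threshold or else the 4 with the highest mean FPKM, and the 3 genes nearest to the leading member of each family with a mean of at least 10 FPKM, leaving out predicted, clone, microRNA, small nucleolar and ribosomal protein symbols. One gene that the rule names is not reported here. Genes named beside a count of 5 or fewer, and others so described, were chosen after their values were seen. Alternatives were other pseudocounts, filters, scalings and variance models, each library left out, and the replicate number as a block.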

Additional observations from a re-analysis of the deposited data

How the results depend on the processing

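No member passed limma's adjusted threshold under any of the 12 alternatives run, and 0 of 138 listed pathway genes did, as in the reported fit. Over all genes the count of 4 calls became 2 with no filter beyond a value above 0, 0 with the replicate number as a block, and 0 with each library left out. The block was run because the groups share numbers 1 and 2. Nothing says that these numbers pair the samples, and the deviations of same-numbered libraries from their group means correlated at 0.0432 across genes. With the block, the lowest adjusted p of a member was 0.330. Of 105 member values under the alternatives, 94 kept their direction and 11 reversed. The reversals were Jund at 0.01 with upper quartile scaling, and otherwise came on leaving out a library: over the 4 libraries left out in turn the log2 difference ran from -2.53 to 0.84 for Fos, -0.29 to 0.03 for Fosl2, -0.85 to 0.14 for Jun, -2.11 to 0.48 for Junb, -0.23 to 0.18 for Jund, -1.94 to 1.52 for Egr1 and -1.24 to 0.03 for Egr2. Fosl1 and Fosb kept their direction under each alternative that tested them, from -2.83 to -1.07 and from -1.34 to -0.51. Both passed the main filter through their cochlear values, so that direction was partly built in. The value of Fosl1 was -2.83 with a pseudocount of 0.1. With other scalings, chosen after seeing the data, the library numbered 1 was higher in both groups in 7 of 9 tested members (upper quartile) and 6 of 9 (quantile), against 7 as deposited. Fosl1 in vestibular 2 rests on about 1 fragment, which limits the size of its difference.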
